A study of Mus musculus with 30 samples.

Results

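The ventricles of Sox6 KO mice at postnatal day 60 (P60) were compared with those of Sox6 KO mice at P30, with 3 mice per age. The comparison takes its arrays by genotype and age from the sample titles, which gives 6 of the 30 arrays of the series. The KO mice were Sox6loxp/loxp; MCK-Cre. The ventricles of MCK-Cre control mice at P60 and P30, also 3 per age, gave the same age step without the floxed alleles, so that Cre is shared by both genotypes. All of the mice were of an FVB/B6 hybrid strain and, according to the study's methods, male. The MCK promoter drives Cre in cardiac and skeletal muscle cells and not in the fibroblasts, endothelial cells and immune cells that a whole ventricle also holds. RNA of whole ventricles was hybridised to single-colour Illumina mouse whole-genome bead arrays. No probe carries the name *Sox6*, so the deletion could not be checked on these arrays.

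Sox6 is a transcription factor of the SRY-box family that activates or represses genes, depending on the cell type, and is known for repressing embryonic globin and slow muscle genes. Between weaning and adulthood the mouse ventricle leaves its phase of fast growth. Cardiomyocytes then enlarge slowly, oxidative metabolism is established, and fibroblasts make less new matrix, the network of collagens and elastic fibres that the growing tissue had required. The heart also keeps a circadian clock, a feedback loop in which CLOCK and BMAL1 bind the E-box sequence CACGTG to switch on the *Per* genes and PER proteins switch CLOCK and BMAL1 off.

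On each array 13997 to 14920 of the 45281 gene probes were detected at KO P60, against 14796 to 15171 at KO P30. A probe was taken as detected where it exceeded the mean of an array's negative controls by more than 2 of their SDs. The mean of those negative controls was 93.6 to 99.4 intensity units on the KO P60 arrays, against 119.9 to 120.9 on the KO P30 arrays, and the control mice showed the same gap, with 94.4 to 101 at P60 and 118.4 to 120.3 at P30. Age therefore moved together with the background of the arrays in both genotypes, its part in the results was not tested, and the sources used here do not name the chips on which the samples lay. Replicate arrays correlated at 0.9909 to 0.9922 at KO P60 and at 0.991 to 0.9934 at KO P30. Cardiomyocyte markers (9 of 10 measured, among them *Myh6*, *Actc1* and *Myl2*) summed to 228752 to 237298 signal units at KO P60, against 235760 to 239075 at KO P30. The number of arrays limits the precision, and the age and any difference in handling between the ages cannot be told apart.

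Of 17997 probes tested, 381 were called between KO P60 and KO P30, where a call needs 1.5-fold or more at an adjusted p below 0.01. Of these, 168 were higher at P60 (0.933% of the probes tested) and 213 were lower (1.18%). The 3 arrays of each age did not overlap in 375 of the 381 probes. The call rule itself favours such probes, so this count describes the calls and is no further evidence for them. The change reached 2-fold in 25 of the probes called higher and in 17 of those called lower. The same step in the control mice gave 547 called probes, 241 of them higher (1.34%) and 306 lower (1.7%). With the arrays scaled to their medians in place of quantile normalization, the split was 86 higher and 244 lower in the KO, and 157 higher and 364 lower in the controls.

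Much of the KO step was also seen in the controls. Of the probes called higher in the KO, 90 were called higher in the controls too, which is 53.6% of the KO list and 37.3% of the control list. Of those called lower, 93 were called lower in both genotypes, which is 43.7% of the KO list and 30.4% of the control list. Only 4 probes were called in opposite directions. The control change had the sign of the KO change in 159 of the 168 probes called higher and in 194 of the 213 called lower. Both sets of P30 and P60 arrays were normalized together, and the KO and control age changes share no array. The P60 arrays of both genotypes had the lower background, and its part in this agreement was not tested.

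**Figure D1:**
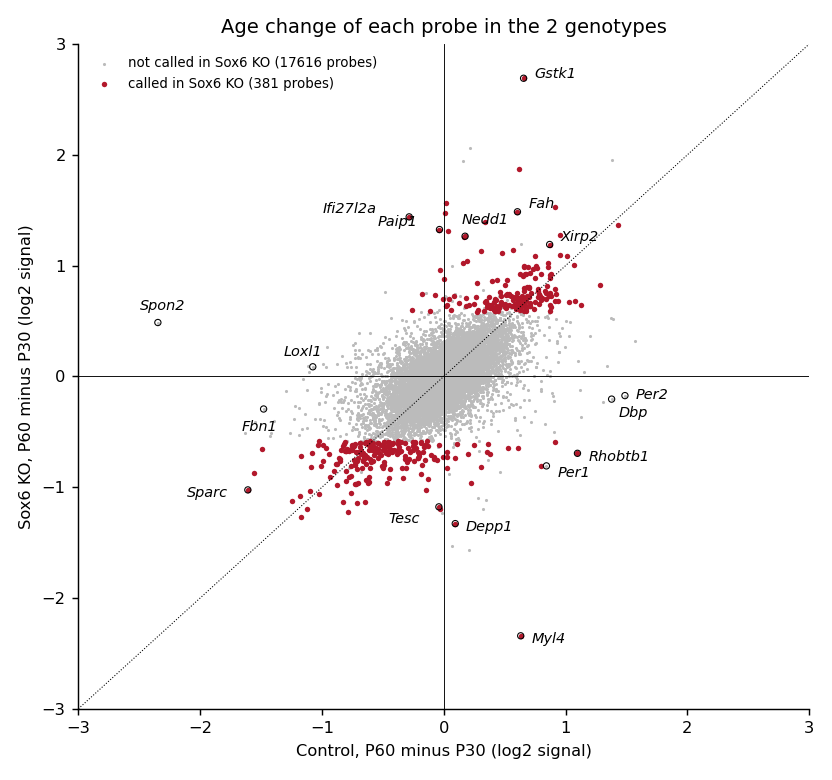
Change between P60 and P30 (log2, P60 minus P30) of each probe tested, with the KO change on one axis and the control change on the other. The 381 probes called in Sox6 KO ventricles are in red and the others in grey. Most of the red points lie in the quadrants of equal sign (159 of the 168 called higher and 194 of the 213 called lower). *Myl4* lies farthest down on the KO axis at -2.34 with a control change of 0.63.

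The difference of the age changes, KO minus control, passed an adjusted p of 0.05 in 428 probes. In 233 of them the KO change was the more positive, and in 195 the more negative. By the stricter call rule 77 differences were positive (0.428%) and 59 negative (0.328%). Among the 233 positive differences, the control signal fell past the threshold in 171, and the KO change did not pass in 133. Among the 195 negative ones, the control signal rose past the threshold in 126 and the KO change did not pass in 92. A difference between the genotypes passed at P30 in 167 of the positive and 102 of the negative probes, and at P60 in 59 and 85 of them. These genotype comparisons use the same arrays as the age changes and are given as a description. The count of 428 was 220 with median scaling and 278 without replicate 2 of control P30.

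The largest fall belonged to *Myl4*, the essential myosin light chain of atrial and fetal cardiomyocytes. Its log2 signal was 7.80, 8.48 and 7.58 on the KO P60 arrays, against 10.22, 9.01 and 11.66 on the KO P30 arrays. The ages did not overlap, and the KO P30 ventricles differed widely among themselves. The signal was 5.07-fold lower at P60 (log2 change -2.34 ± 0.47, SE; adjusted p = 0.000865). Without KO P30 replicate 3 the log2 change was -1.66 (adjusted p = 0.0116). The control arrays read 8.50, 8.72 and 9.29 at P60, against 8.28, 7.86 and 8.46 at P30, and 2 of the 3 KO P30 ventricles stood above every one of them. The difference of the age changes was -2.97 (adjusted p = 0.0114).

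*Myl7*, the atrial regulatory light chain, was looked up after the value of *Myl4* had been seen. It read 6.85, 7.23 and 6.78 at KO P60, where 1 of 3 arrays detected it, against 8.28, 7.52 and 9.65 at KO P30 (log2 change -1.53 ± 0.46, adjusted p = 0.0199). The order of the 3 KO P30 arrays was the same for both light chains, with replicate 3 highest and replicate 2 lowest. *Nppa*, the gene of atrial natriuretic peptide, read 12.32, 11.999 and 12.48 at KO P60, against 12.99, 13.08 and 13.21 at KO P30, a log2 change of -0.83 that did not pass (adjusted p = 0.0667). *Myl7* is also 1 of the 6 atrial markers listed, but its name comes only from the study's table of genotype differences, and such probes were left out of the marker counts. Of the 6, 3 were counted (*Myl4*, *Nppa* and *Dkk3*), and 1 of them passed. Their summed signal was 4617 to 6030 units at KO P60, against 9335 to 12957 at KO P30, and 3154 to 6895 at control P60, against 6020 to 11641 at control P30. What part atrial tissue in the samples has in the *Myl4* value was not tested, and in whole tissue fewer cells of a type cannot be told from less RNA per cell.

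Other leading falls were those of *Tesc*, *Depp1* and *Ddit4*. *Tesc*, which encodes the calcium-binding protein tescalcin, read 10.07, 9.98 and 10.04 at KO P60, against 11.40, 11.02 and 11.19 at KO P30 (log2 change -1.18 ± 0.20, adjusted p = 0.000189). All KO P30 arrays lay above all other arrays of the 2 ages, since the controls read 10.26, 10.15 and 10.36 at P60 and 10.12, 10.43 and 10.34 at P30. *Depp1*, a target of FOXO transcription factors, was likewise highest at KO P30, with 9.16, 9.55 and 9.82 at KO P60 and 10.58, 10.77 and 11.17 at KO P30 (-1.33 ± 0.24, adjusted p = 0.000296). For both genes the difference from the control change passed (*Tesc* -1.14, adjusted p = 0.0294, *Depp1* -1.42, adjusted p = 0.0198), but it did not pass in 10 of 17 alternatives for *Tesc* and in 5 of 17 for *Depp1*. *Ddit4*, an inhibitor of mTORC1 induced by stress and glucocorticoids, changed by -1.20 ± 0.29 (adjusted p = 0.00536). Its KO P60 arrays read 7.59, 8.46 and 8.89, against 9.14, 9.30 and 10.09 at KO P30, and without KO P60 replicate 1 the change was -0.84 (adjusted p = 0.0573).

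In a further group of falls the control signal fell as well. *S100a13*, a calcium-binding protein involved in the release of growth factors without a signal peptide, read 8.65, 8.63 and 8.86 at KO P60, against 9.91, 9.997 and 9.83 at KO P30. It changed by -1.20 ± 0.16 in the KO and by -1.13 in the controls. *Ptpre*, a receptor-type protein tyrosine phosphatase, changed by -1.08 and -1.18, and *Pet100*, a chaperone of cytochrome c oxidase assembly, by -1.03 and -1.10. *Klhdc3*, a kelch-repeat substrate adaptor of a ubiquitin ligase, changed by -1.13 in the KO and -0.83 in the controls, and *Tns1*, which links integrins to actin, by -1.14 and -0.65. None of these 5 genes passed the test of the difference between genotypes, which does not show that the changes were of equal size. *Psmd11*, a subunit of the proteasome lid, read 7.50, 7.57 and 7.58 at KO P60 and 8.48, 8.51 and 8.56 at KO P30. Its log2 change was -0.97 in the KO and -0.46 in the controls, and the difference of -0.50 passed (adjusted p = 0.0307) but failed in 9 of 17 alternatives. A probe for the apoptosis regulator *Bfar*, named through the study's own table of genotype differences, fell by 1.03 on the log2 scale and was detected on 2 of 3 arrays at KO P60. The other *Bfar* probe changed by -0.11 (adjusted p = 0.516), so the probes of this gene disagree.

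The largest rise was that of a probe for *Gstk1*, a mitochondrial and peroxisomal glutathione transferase. It read 11.80, 10.89 and 11.07 at KO P60, against 7.69, 7.54 and 10.46 at KO P30, which is 6.46-fold higher (log2 change 2.69 ± 0.45, adjusted p = 0.000129). KO P30 replicate 3 lay close to the P60 arrays, and the other two far below it. Without that array the change was 3.64. A second *Gstk1* probe read 11.65, 11.83 and 11.88 at KO P60, against 11.57, 11.68 and 11.55 at KO P30, and did not pass (0.19, adjusted p = 0.202). The probes disagree, and the first carries its name only through the study's table of genotype differences, which had been selected on these arrays.

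*Abhd1*, a gene of the alpha/beta hydrolase family, rose by 1.87 ± 0.23 on the log2 scale (adjusted p = 2.95e-06). It read 9.51, 9.37 and 9.43 at KO P60, against 6.95, 8.52 and 7.23 at KO P30, where 2 of 3 arrays detected it. A second probe, detected on 1 of 3 KO P30 arrays, read 8.60, 8.52 and 8.86 at KO P60, against 6.86, 8.05 and 6.90 at KO P30. Both probes carry the name only through the study's table of genotype differences. Here too a single KO P30 array, replicate 2, lay nearer to the P60 values than the others of its group. The difference from the control change (1.26, adjusted p = 0.0344) did not pass in 14 of 17 alternatives.

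*Fah*, which encodes the last enzyme of tyrosine breakdown, rose in both genotypes. It read 9.12, 8.97 and 9.39 at KO P60, against 7.71, 7.77 and 7.55 at KO P30, and 10.19, 10.28 and 10.26 at control P60, against 9.50, 9.73 and 9.70 at control P30. The log2 change was 1.49 ± 0.11 in the KO (adjusted p = 3.7e-09) and 0.60 in the controls, and the KO stayed below the controls at both ages. *Paip1*, a translation factor that binds poly(A)-binding protein, rose in the KO, and its control arrays showed no such rise. Its 3 KO P60 arrays read 8.84, 9.05 and 9.02, against 7.53, 7.77 and 7.64 at KO P30, while the controls stayed between 7.66 and 7.89 at both ages. The KO change was 1.33 ± 0.12 (adjusted p = 2.42e-08), and the difference from the controls 1.36 (adjusted p = 3.44e-05). *Nedd1*, a centrosomal protein that recruits gamma-tubulin, had the next such rise, with 9.76, 9.67 and 9.60 at KO P60, against 8.21, 8.76 and 8.26 at KO P30 (1.26 ± 0.13). Its second probe rose by 0.51 (adjusted p = 0.0404).

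**Figure D2:**
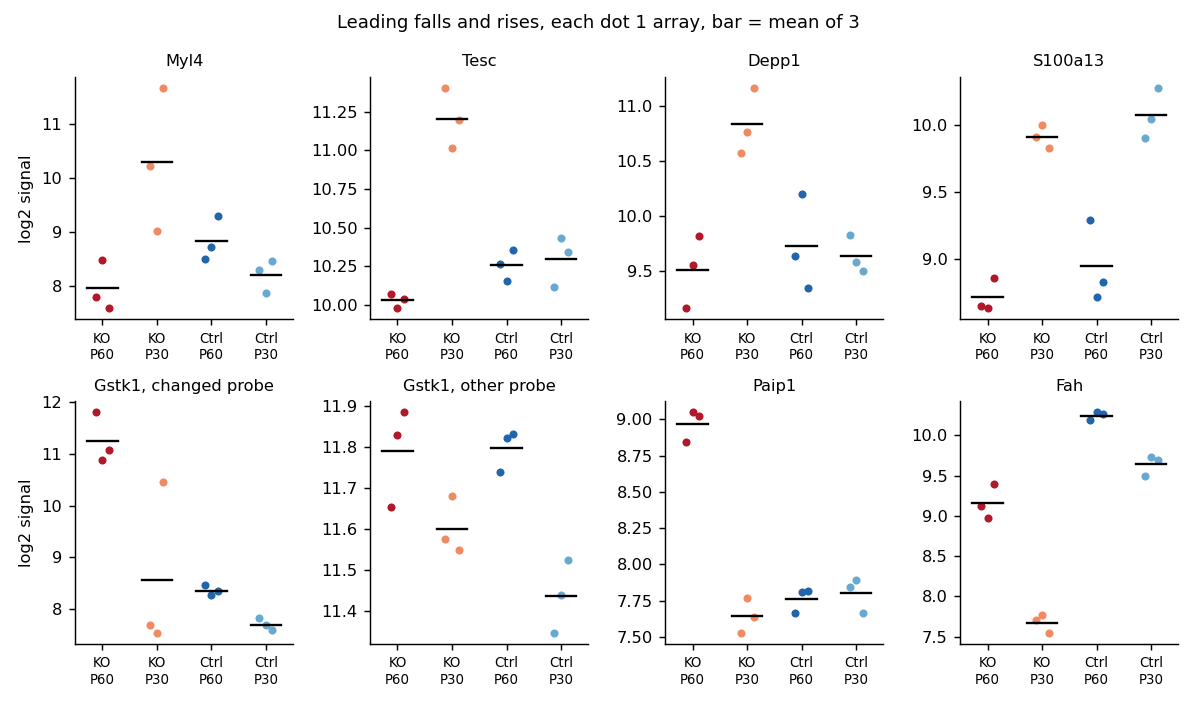
Log2 signal of leading genes on each array of Sox6 KO P60, Sox6 KO P30, control P60 and control P30, with 1 dot per array and a bar at the mean of 3. *Tesc* and *Depp1* are high at KO P30, *Paip1* is high at KO P60 (8.84 to 9.05), and the *Gstk1* probes differ, with KO P30 replicate 3 at 10.46 on the first.

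The remaining leading rises were largely shared with the controls. *Xirp2*, an actin-binding protein of the intercalated disc, read 12.02, 12.18 and 11.77 at KO P60, against 10.83, 10.63 and 10.94 at KO P30 (log2 change 1.19 ± 0.12 in the KO and 0.87 in the controls). *Ndufb4*, an accessory subunit of respiratory complex I, changed by 1.09 and 1.01, *Sptssa*, a small subunit of serine palmitoyltransferase, by 1.09 and 0.75, and *Selenop*, a selenium carrier protein, by 1.03 and 0.86. *Gng5*, a G protein gamma subunit, changed by 1.00 and 0.76, and *Kpna3*, a nuclear import receptor, by 0.99 and 0.86. The RNA helicase gene *Mtrex*, of the nuclear exosome, rose by 1.14 in the KO and by 0.57 in the controls, and the difference (0.57, adjusted p = 0.0215) did not pass in 7 of 17 alternatives. *Osbp*, which transfers sterols between the ER and the Golgi apparatus, rose by 1.13 in the KO and changed by 0.31 in the controls (adjusted p = 0.252). *Retnla*, a secreted protein of alternatively activated macrophages and adipose tissue, read 9.25, 8.96 and 9.35 at KO P60, against 7.93, 8.24 and 8.30 at KO P30 (1.03 ± 0.13), and its difference from the controls was 0.87 (adjusted p = 0.01). Of probes without a gene name, 2 of the largest rises were ILMN_2543507 (1.56, detected on 1 of 3 KO P30 arrays) and ILMN_3155380 (1.53), and 2 of the largest falls ILMN_2540574 (-1.27) and ILMN_2710353 (-1.22).

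Genes were next grouped by function, with 1 probe per gene. A member was counted where its adjusted p over all probes tested was under 0.05. Over the 6360 named genes, 798 were higher at KO P60 (12.5%) and 548 lower (8.62%), with a median log2 change of 0.03. In the controls 983 were higher (15.5%) and 817 lower (12.8%), with a median of 0.01. The difference of the age changes was positive in 132 genes (2.08%) and negative in 81 (1.27%), with a median of 0.01. The counts of each list are read beside these shares. The lists and their members were chosen with earlier results of these data known, so a count above a share is no independent evidence.

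Matrix genes fell in the control ventricles, and a part of them fell less or not at all in the KO. Of 32 measured genes for fibrillar collagens, elastic fibres and matricellular proteins, 6 were lower and 1 higher (*Spon2*) at KO P60, with a median log2 change of -0.13. At control P60, 22 were lower and none higher, with a median of -0.55. The difference of the age changes was positive in 11 of the 32 and negative in none. *Sparc*, a collagen-binding glycoprotein, fell in both genotypes, with 11.17, 11.12 and 10.82 at KO P60, against 12.21, 12.09 and 11.88 at KO P30, a log2 change of -1.02 ± 0.10 in the KO and -1.61 in the controls. Its difference of 0.58 did not pass in 10 of 17 alternatives. For a second *Sparc* probe the difference was 0.75 to 0.97 over 17 alternatives and passed in all of them. *Ccn2*, connective tissue growth factor, read 10.27, 10.60 and 11.22 at KO P60, against 11.73, 11.84 and 11.82 at KO P30 (-1.10, adjusted p = 0.0329), and changed by 0.28 in the controls (adjusted p = 0.628). The difference of the *Ccn2* changes, -1.38, did not pass (adjusted p = 0.181). *Col1a1*, the main chain of type I collagen, changed by -0.88 in the KO and -1.56 in the controls. *Fbln2* (-0.32 and -0.76) and *Mfap5* (-0.51 and -1.27), both of elastic fibres and microfibrils, fell in both genotypes as well.

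The gene with the largest positive difference was *Spon2*, which encodes spondin 2, a secreted matrix protein. It read 8.69, 8.91 and 8.33 at KO P60, against 8.35, 8.19 and 7.93 at KO P30. The controls read 7.14, 7.29 and 7.43 at P60, against 9.44, 9.81 and 9.65 at P30. The order of the genotypes was thus turned round between the ages, with the KO below the controls on all arrays at P30 and above them on all arrays at P60. The KO change was 0.49 ± 0.17 (adjusted p = 0.04), which did not pass in 7 of 15 alternatives, and the control change -2.35. The difference was 2.83 ± 0.23 (adjusted p = 4.01e-08) and 2.61 to 4.16 over 17 alternatives.

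The same crossing was measured for *Fbn1*, the main protein of microfibrils. It read 8.79, 8.56 and 8.50 at KO P60, against 8.94, 8.98 and 8.81 at KO P30, and 8.05, 7.78 and 7.89 at control P60, against 9.26, 9.62 and 9.27 at control P30 (difference 1.18, adjusted p = 4.73e-06). *Loxl1*, a cross-linking enzyme of elastin, read 10.15, 10.08 and 9.85 at KO P60, against 10.001, 9.88 and 9.94 at KO P30, while the controls read 9.28, 9.34 and 9.43 at P60 and 10.45, 10.42 and 10.40 at P30 (difference 1.16, adjusted p = 2.66e-06). *Col3a1*, the chain of type III collagen, changed by 0.39 in the KO (adjusted p = 0.0585) and by -0.70 in the controls, with a difference of 1.09 (adjusted p = 0.00254). For these 3 genes the KO arrays lay below the control arrays at P30 and above them at P60. *Eln*, *Mfap4*, *Col6a3*, *Col5a1*, *Bgn*, *Dpt* and *Fstl1* were named after their values were seen. They had KO changes of -0.51 to -0.01, none of which passed, and control changes of -1.63 to -0.61. Their differences of 0.56 to 1.14 passed. Of 17 alternatives, the difference did not pass in 13 for *Dpt*, 7 for *Col5a1*, 5 for *Fstl1* and 3 for *Eln*. For *Mfap4*, *Col6a3* and *Bgn* it passed in all of them.

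Over the 5 ages, *Spon2* averaged 11.02, 11.94, 11.22, 8.16 and 8.64 in the KO at P1, P7, P14, P30 and P60, and 10.84, 11.87, 10.69, 9.63 and 7.29 in the controls. In the KO the mean was lower at P30 than at P60, while in the controls it was lowest at P60. *Fbn1* averaged 9.38, 10.18, 10.54, 8.91 and 8.62 in the KO, and 9.41, 10.25, 10.27, 9.39 and 7.91 in the controls. *Col3a1* averaged 10.16, 11.09, 11.69, 8.69 and 9.08 in the KO, and 10.11, 11.35, 11.05, 9.24 and 8.54 in the controls.

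**Figure D3:**
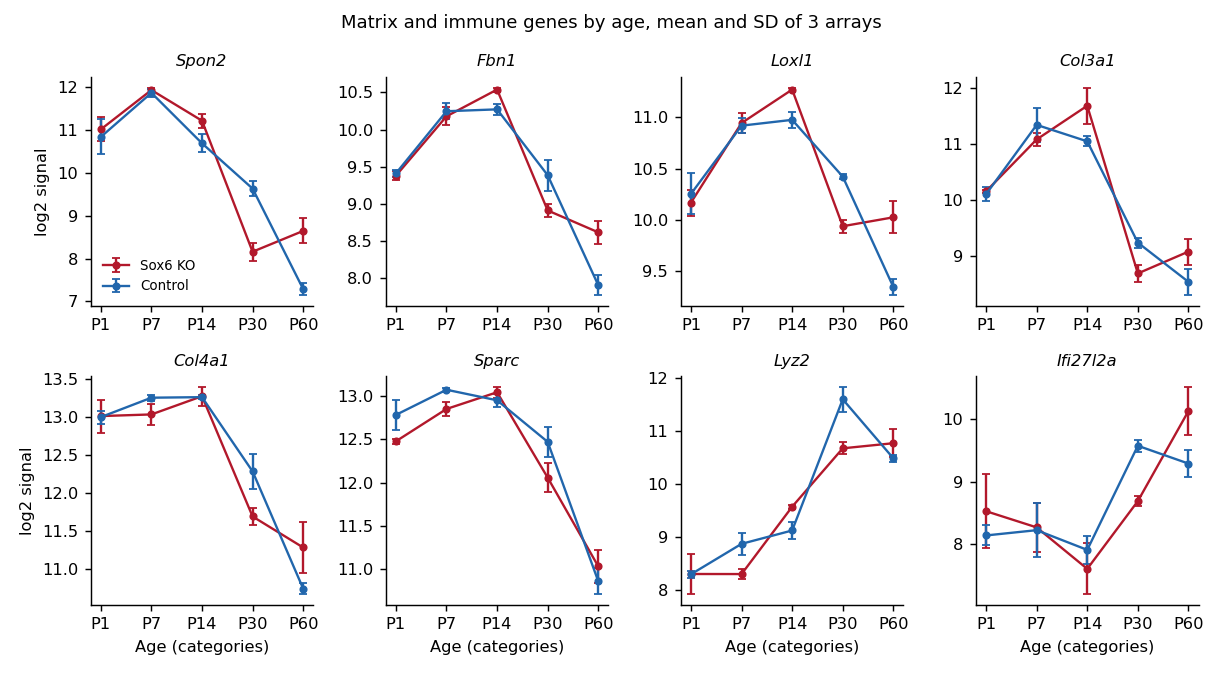
Mean log2 signal (error bars, SD, n = 3) of matrix, macrophage and interferon genes at P1, P7, P14, P30 and P60 in Sox6 KO and control ventricles. The matrix genes of the KO lie below those of the controls at P30 and above them at P60, as for *Spon2* with 8.64 in KO and 7.29 in control mice at P60.

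Of 22 enzymes that process collagen and remodel matrix, 3 were lower and 2 higher at KO P60 (4 and none with median scaling), and 10 were lower and 1 higher (*Timp3*) at control P60. The difference was positive in 4 (*Loxl1*, *Mmp14*, *Mmp2* and *Adamts2*) and negative in 1 (*Timp3*). The KO falls were *Ppib* (-1.05 ± 0.16, adjusted p = 4.7e-05) and *Serpinh1* (-0.69), both ER proteins for collagen folding, and *Mmp2* (-0.47), a gelatinase. The KO rises were *Crtap* (0.35), of collagen prolyl hydroxylation, and *Sulf1* (0.41), a heparan sulfatase, and neither passed with median scaling. *Mmp14*, a membrane-bound collagenase, changed by -0.07 in the KO and -0.95 in the controls. *Timp3*, an inhibitor of these proteases, went the other way, with 0.05 in the KO and 0.87 in the controls.

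Fibroblast markers overlap with these lists. Of 10 measured (among them *Pdgfra*, *Tcf21*, *Dcn* and *Col1a1*), 3 were lower at KO P60 and 9 at control P60, and none was higher in either. Their summed signal was 17429 to 20093 units at KO P60, against 21660 to 23202 at KO P30, and 19444 to 20348 at control P60, against 24995 to 27071 at control P30. The part of fibroblast content in the matrix values was not tested.

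The 12 basement membrane genes included 5 falls and no rise at KO P60, with a median log2 change of -0.28, and 8 falls and 1 rise (*Lama5*) at control P60, with a median of -0.49. *Nid1*, a linker of laminin and collagen IV, changed by -0.76 in the KO and by -0.99 in the controls. *Col4a1*, a chain of the sheet-forming collagen IV, read 11.62, 11.27 and 10.96 at KO P60, against 11.71, 11.79 and 11.57 at KO P30, and 10.83, 10.72 and 10.68 at control P60, against 12.14, 12.55 and 12.18 at control P30. The ages overlapped in the KO and lay far apart in the controls. It changed by -0.41 in the KO, its partner *Col4a2* by -0.51 and *Col4a5* by -0.45. The differences from the control changes were 1.14 (adjusted p = 0.000456), 0.91 and 0.54. *Lama5*, a laminin chain, changed the opposite way, by -0.26 in the KO and 0.36 in the controls (difference -0.62, adjusted p = 0.00621).

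Of 37 endothelial genes measured, 4 were lower at KO P60 and 17 at control P60, and none was higher in either. The KO falls were *Gpihbp1* (-0.66), which anchors lipoprotein lipase to capillaries, *Ly6c1* (-0.68), *Ramp2* (-0.45), a receptor partner for adrenomedullin, and *Robo4* (-0.41), a guidance receptor of vessels. Each of these 4 was lower in the controls too. The difference was positive in 4 others, *Rhoj* (0.79), *Cldn5* (0.79), *Emcn* (0.57) and *Bcl6b* (0.45), but in only 1 of the 37 with median scaling. The 10 endothelial markers measured summed to 8998 to 9751 units at KO P60, against 8652 to 10350 at KO P30, and to 9260 to 9508 at control P60, against 10938 to 11675 at control P30.

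Of 40 actin cytoskeleton genes, 9 were lower and 3 higher at KO P60, while 21 were lower and none higher at control P60. *Myh9* (-0.72), nonmuscle myosin IIA, *Arpc1b* (-0.62), of the ARP2/3 complex, *Vim* (-0.59) and *Ezr* (-0.67) fell in both genotypes. *Tmsb4x* (0.50), which sequesters actin monomers, *Capg* (0.32), a capping protein, and *Wdr1* (0.32), which helps cofilin to disassemble filaments, rose in the KO, but none of the 40 was higher with median scaling. The difference was positive in 7 genes, or in 4 with median scaling.

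Of 12 macrophage genes, 2 were higher and none lower at KO P60, or none either way with median scaling, while 7 were lower and none higher at control P60. *Lyz2*, the macrophage lysozyme, read 10.58, 11.07 and 10.64 at KO P60, against 10.63, 10.79 and 10.58 at KO P30, and 10.42, 10.48 and 10.54 at control P60, against 11.32, 11.70 and 11.75 at control P30. The KO ages overlapped, and the control P30 arrays stood above all others (difference 1.21, adjusted p = 0.000919). *Lyz1* (difference 0.88) and *Laptm5* (0.71), a lysosomal membrane protein of blood cells, also passed, but that of *Laptm5* did not in 10 of 17 alternatives. *Csf1r*, the receptor of macrophage colony-stimulating factor, rose in the KO by 0.34 (adjusted p = 0.0101) and *Laptm5* by 0.39. The 9 macrophage markers measured summed to 9811 to 12630 units at KO P60, against 9615 to 10175 at KO P30, and to 9318 to 9438 at control P60, against 13094 to 16421 at control P30.

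Of 16 interferon-responsive genes, 2 were higher and none lower at KO P60, a share no larger than the 12.5% of all named genes, with a median log2 change of 0.21. At control P60, 1 was higher and 3 were lower, with a median of -0.03. *Ifi27l2a*, an interferon-induced mitochondrial protein, read 10.44, 9.70 and 10.26 at KO P60, against 8.78, 8.66 and 8.64 at KO P30 (1.44 ± 0.24, adjusted p = 0.000144). The controls read 9.31, 9.06 and 9.50 at P60 and 9.65, 9.47 and 9.61 at P30, so the KO was below all controls at P30 and above them at P60 (difference 1.72, adjusted p = 0.00463). The other rise was *Igtp* (0.62), an interferon-inducible GTPase, which did not pass with median scaling. Differences also passed for *Ifi27* (0.69) and *Ifitm2* (0.45). Among 11 MHC class I genes, *H2-K1* (0.62), *B2m* (0.69), the light chain, and *Psmb10* (0.37), an immunoproteasome subunit, rose in the KO and none fell, with none passing under median scaling. *H2-K1* shares sequence with other class I genes, so its value is uncertain.

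The 8 largest negative differences included those of the clock genes *Per1*, *Per2*, *Dbp* and *Tef*. Among the 12 clock genes measured, 2 were lower and none higher at KO P60, whereas 5 were higher (*Per1*, *Per2*, *Dbp*, *Tef* and *Csnk1e*) and 3 lower (*Nr1d1*, *Nfil3* and *Clock*) at control P60. The difference was negative in 5 and positive in none. The sources used here do not give the hour at which ventricles were collected.

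The promoters of the 8 genes with the largest negative differences were searched for the E-box CACGTG, which reads the same on both strands, because the clock acts on it. A window ran from 250 bases before to 50 bases after a RefSeq transcription start on GRCm38.p6. Of the 8 genes, 7 had a window, and 4 of their 11 windows held the motif, against 2349 of all 32851 windows (7.15%). Counted by gene, 3 of the 7 had it in at least 1 window, against 2187 of all 27025 genes (8.1%), and a gene with several starts had more windows to match. It lay 166 bases before a start of *Per1* (chr11:69098736-69098835, + strand), 67 bases before a start of *Rhobtb1* (chr10:69212543-69212642, + strand), and 127 and 138 bases before 2 starts of *Tef* (chr15:81802499-81802598 and chr15:81811229-81811328, + strand). The 100 bases around each match are shown so that the setting of the E-box, in capitals, can be compared between these genes.
Per1: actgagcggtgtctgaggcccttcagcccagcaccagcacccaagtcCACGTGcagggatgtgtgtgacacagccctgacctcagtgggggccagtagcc
Rhobtb1: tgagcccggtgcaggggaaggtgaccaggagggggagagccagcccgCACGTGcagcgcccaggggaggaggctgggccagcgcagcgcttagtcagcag
Tef, first start: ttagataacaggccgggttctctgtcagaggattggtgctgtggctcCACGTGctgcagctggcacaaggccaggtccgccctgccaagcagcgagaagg
Tef, second start: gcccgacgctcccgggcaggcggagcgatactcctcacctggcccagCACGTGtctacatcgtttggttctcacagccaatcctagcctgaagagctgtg
A match describes the letters of the window and is no evidence of binding. *Dbp*, *Cebpb*, *Depp1* and *Myl4* had no CACGTG in theirs.

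*Per2*, a repressor in the clock's feedback loop, read 7.77, 8.06 and 8.67 at KO P60, against 8.06, 8.28 and 8.70 at KO P30. The controls read 9.02, 9.26 and 9.19 at P60, against 7.87, 7.15 and 7.98 at P30. The KO ages overlapped while the control ages did not, and the difference was -1.66 ± 0.29 (adjusted p = 0.00131). *Per1*, its close relative, read 7.88, 8.58 and 8.80 at KO P60, against 8.70, 9.38 and 9.60 at KO P30, and 8.39, 9.04 and 9.27 at control P60, against 8.17, 7.59 and 8.42 at control P30. Its KO change of -0.81 (adjusted p = 0.0302) did not pass in 6 of 15 alternatives. Its difference was -1.65 (adjusted p = 0.0115), or -1.42 without control P30 replicate 2 (adjusted p = 0.0518).

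*Dbp*, a transcription factor that carries the clock's rhythm to output genes, read 11.20, 11.42 and 11.84 at KO P60, against 11.68, 11.49 and 11.91 at KO P30, and 11.95, 11.90 and 12.04 at control P60, against 10.99, 9.87 and 10.89 at control P30 (difference -1.58, adjusted p = 0.00068). *Tef*, of the same family, read 8.43, 8.56 and 8.40 at KO P60, against 9.19, 8.82 and 9.15 at KO P30, and 9.18, 8.98 and 9.27 at control P60, against 8.46, 7.91 and 8.31 at control P30 (difference -1.50, adjusted p = 0.000114). *Tef* thus fell in the KO (-0.59) and rose in the controls (0.92). *Csnk1e*, the kinase that marks PER proteins for degradation, changed by 0.00 in the KO and 0.48 in the controls (difference -0.47, which did not pass in 13 of 17 alternatives). *Nr1d1*, the repressor REV-ERB alpha, which has its peak at another phase than the *Per* genes, changed by -0.19 in the KO and -0.64 in the controls, and this difference of 0.45 did not pass (adjusted p = 0.156).

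*Rhobtb1*, which encodes an atypical small GTPase with BTB domains, had the largest negative difference after *Myl4*. It read 10.63, 10.68 and 11.13 at KO P60, against 11.31, 11.29 and 11.93 at KO P30, and 11.84, 12.02 and 11.84 at control P60, against 11.13, 10.44 and 10.84 at control P30. The KO ages and the control ages did not overlap, and they ran in opposite directions (KO -0.69, control 1.10, difference -1.79, adjusted p = 0.000171). Without KO P30 replicate 3 the KO change was -0.48 and did not pass (adjusted p = 0.0748).

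**Figure D4:**
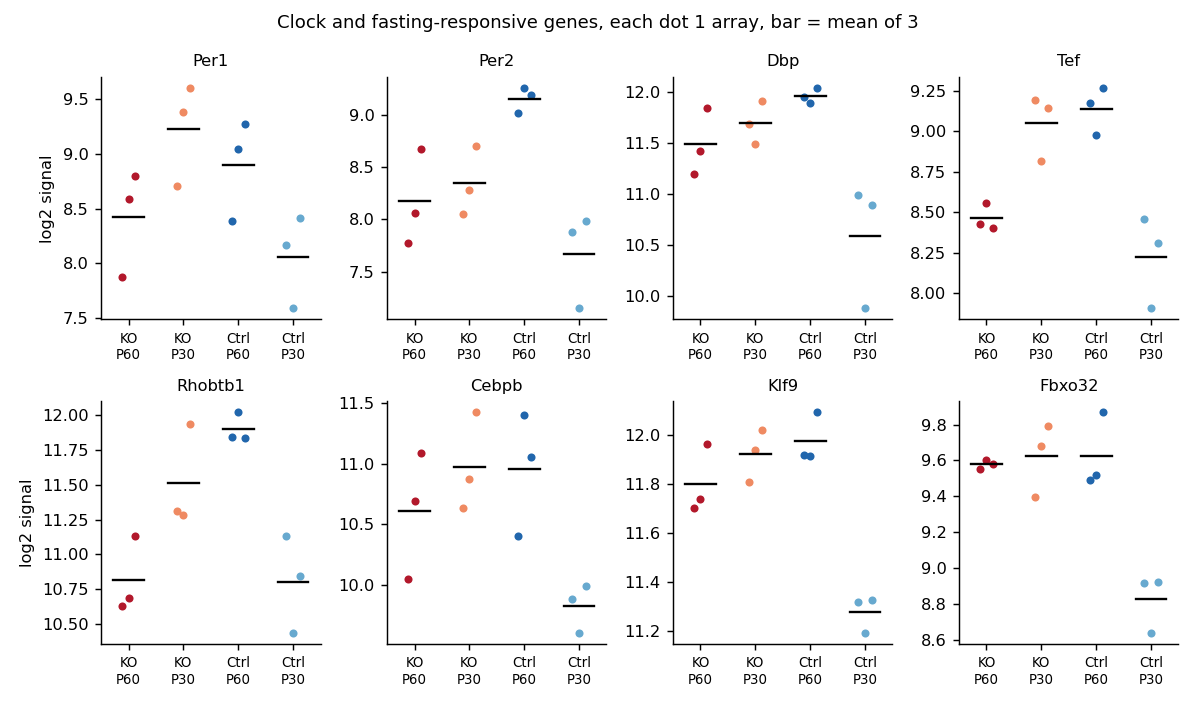
Log2 signal of clock and glucocorticoid-responsive genes on each array of Sox6 KO P60, Sox6 KO P30, control P60 and control P30, with 1 dot per array and a bar at the mean of 3. The control P30 arrays are the lowest for *Dbp* (9.87 to 10.99) and *Klf9* (11.19 to 11.33), whereas the KO ages lie close together or run the other way.

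Of 13 genes known to respond to fasting and glucocorticoids, 1 was lower at KO P60 (*Ddit4*) and none higher, while 4 were higher (*Cebpb*, *Fbxo32*, *Klf9* and *Sgk1*) and none lower at control P60, with medians of -0.18 and 0.44. The difference was negative in 4. *Klf9*, a direct target of the glucocorticoid receptor, read 11.70, 11.74 and 11.96 at KO P60, against 11.81, 11.94 and 12.02 at KO P30, and 11.92, 11.91 and 12.09 at control P60, against 11.32, 11.19 and 11.33 at control P30 (difference -0.81, adjusted p = 0.00477). *Fbxo32*, a muscle ubiquitin ligase of atrophy, changed by -0.05 in the KO and 0.80 in the controls, *Cebpb*, a transcription factor of the acute phase, by -0.36 and 1.13, and *Tsc22d3*, the glucocorticoid-induced leucine zipper, by -0.49 and 0.44. All 4 differences were negative (-1.49 to -0.81), and that of *Tsc22d3* did not pass in 11 of 17 alternatives. Of 15 immediate early genes, *Klf6* fell in the KO (-0.67) and none rose, 2 were higher and none lower at control P60, and *Zfp36*, which destabilises cytokine mRNAs, was the one whose difference passed (-1.09, adjusted p = 0.0161).

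Some sarcomere genes passed in each direction. Of all named genes 12.5% were higher and 8.62% lower at KO P60. The small counts of this list are therefore not read as a trait of it. Of 30 measured, 4 were higher and 5 lower at KO P60 (2 and 6 with median scaling), with a median log2 change of -0.02, against 7 higher and 4 lower at control P60. Besides *Xirp2*, the rises were *Myh7* (0.53), the slow myosin heavy chain, *Des* (0.38), the muscle intermediate filament, and *Cmya5* (0.30). *Tnni3*, the adult cardiac inhibitory troponin, read 11.26, 11.21 and 11.10 at KO P60, against 12.22, 12.14 and 12.07 at KO P30 (-0.95 ± 0.12 in the KO, -0.62 in the controls). *Myoz2*, *Tmod1*, *Cryab* and *Pdlim5* fell by 0.35 to 0.38. The single difference that passed was *Tcap*, the titin cap, with -0.12 in the KO and 0.80 in the controls (-0.91, adjusted p = 0.0275), and it did not pass in 11 of 17 alternatives.

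Among 16 fetal heart genes, 5 were lower and 1 higher at KO P60, with a median of -0.28, and 8 were lower and 2 higher at control P60. The KO rise did not pass with median scaling. Besides *Myl4*, the KO falls were *Igf2* (-0.62), a fetal growth factor, *Cdkn1c* (-0.30), a cell cycle inhibitor, *Vim* and smooth muscle actin *Acta2* (-0.56), while *Myh7* rose. *H19*, the imprinted noncoding RNA beside *Igf2*, read 7.82, 7.66 and 8.06 at KO P60, against 7.64, 7.74 and 7.82 at KO P30, and 8.21, 7.94 and 8.14 at control P60, against 8.95, 9.14 and 9.18 at control P30. The KO ages overlapped, all KO arrays lay below the control P30 arrays, and the difference was 1.10 (adjusted p = 0.000487). *Nppb*, the gene of B-type natriuretic peptide, changed by -0.54 in the KO (adjusted p = 0.23) and by -1.42 in the controls, a difference of 0.89 that did not pass (adjusted p = 0.355).

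Of 18 calcium handling genes, *Hrc* (0.32), a calcium-binding protein of the sarcoplasmic reticulum, was higher at KO P60, and *Pln* (-0.58), the inhibitor of the calcium pump SERCA, *Cacna2d1* (-0.69), a calcium channel subunit, and *Camk2d* (-0.29) were lower, but with median scaling none was higher and 4 were lower. At control P60, 5 were higher and 1 lower. *Pln* changed by -0.47 in the controls. Of 18 TGF-beta and IGF signalling genes, 3 were higher (*Igfbp7* 0.46, *Smad3* 0.33 and *Igf1* 0.31) and 5 lower (*Tgfbr3* -0.80, *Igf2* -0.62, *Tgfbr2* -0.60, *Igfbp3* -0.41 and *Tgfb1* -0.28) at KO P60, against 2 higher and 7 lower at control P60. With median scaling the KO counts were 1 higher (*Igfbp7*) and 3 lower. *Tgfbr3*, the coreceptor betaglycan, read 8.59, 8.58 and 8.46 at KO P60, against 9.50, 9.29 and 9.26 at KO P30, and 8.65, 8.57 and 8.53 at control P60, against 8.74, 8.85 and 8.69 at control P30. The KO P30 arrays stood above all others, and the difference was -0.62 (adjusted p = 0.000552). *Igf1*, insulin-like growth factor 1, rose in the KO (0.31) and fell in the controls (-0.33), with a difference of 0.63 (adjusted p = 0.00746), and neither the KO change nor the difference passed with median scaling (adjusted p = 0.0949 and 0.0557).

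Fatty acid oxidation supplies most of the energy of the adult heart. Of 30 fatty acid oxidation genes, 1 was higher (*Hadhb*, 0.50) and 1 lower (*Eci2*, -0.43) at KO P60, against 10 higher and 2 lower at control P60. *Acadm*, medium-chain acyl-CoA dehydrogenase, read 14.50, 14.45 and 14.56 at KO P60, against 14.70, 14.53 and 14.70 at KO P30, and 14.87, 14.91 and 14.88 at control P60, against 14.38, 14.31 and 14.42 at control P30. It was the 1 gene of the 30 whose difference passed (-0.66, adjusted p = 0.00137). The difference was below 0 in 28 of the 30, against 3069 of the 6360 named genes. The 30 genes were measured on the same arrays, so they are not independent replicates. Of 16 genes of branched-chain amino acid breakdown, 4 were higher (*Aldh6a1* 0.76, *Dld* 0.73, *Pccb* 0.58 and *Mcee* 0.38) and 1 lower (*Mccc2*, -0.48) at KO P60, against 9 higher and none lower at control P60, and no difference passed.

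Some genes of the tricarboxylic acid (TCA) cycle and of respiration passed in each direction in both genotypes. Of all named genes 12.5% were higher and 8.62% lower at KO P60, so these small counts are not read as a trait of the lists. Of 17 TCA cycle genes, *Idh2* (0.54), *Suclg1* (0.53) and *Dld* were higher and *Mdh2* (-0.76) lower at KO P60. Of 34 complex I genes, 5 were higher (among them *Ndufb4*, *Ndufa13* 0.26, *Ndufa2* 0.22 and *Ndufs6* 0.20) and 4 lower (*Ndufb10* -0.75, *Ndufa6* -0.53, *Ndufb3* -0.37 and *Ndufa1* -0.31). Of 37 genes of complexes III, IV and V, 3 were higher (*Cox7b* 0.98, *Atp5a1* 0.60 and *Cox7a2* 0.41) and 3 lower (*Atp5o*, *Atp5k* and *Cox7c*, -0.41 to -0.29). With median scaling the KO counts were 3 higher and 4 lower for the TCA cycle, 2 and 5 for complex I, and 4 and 6 for complexes III, IV and V. No difference between the genotypes passed in these 3 lists. Of 21 glycolysis genes, *Pfkl*, *Tpi1*, *Hk2* and *Pfkfb2* were higher (0.32 to 0.53) and *Aldoa* lower (-0.57), and *Pfkfb2*, which sets the level of fructose 2,6-bisphosphate, rose less than in the controls (difference -0.60, adjusted p = 0.0356). With median scaling 2 of the 4 rises and this difference did not pass.

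Of 56 cytosolic ribosomal protein genes, 15 were lower and 6 higher at KO P60, with a median log2 change of -0.08, against 32 lower and 2 higher at control P60, with a median of -0.27. With median scaling 19 were lower and 4 higher in the KO. *Rpl15* read 12.65, 12.78 and 12.80 at KO P60, against 13.81, 13.71 and 13.61 at KO P30 (-0.97 ± 0.07, adjusted p = 2.8e-09), but a second probe, named through the study's table of genotype differences, rose by 0.76 (adjusted p = 0.017). *Rps3a1* (-0.98), *Rps23* (-0.82), *Rps28* (-0.81) and *Rpl10a* (-0.64) fell, and *Rpl29* (0.48) and *Rpl10* (0.34) rose. Ribosomal protein genes have many near-identical pseudogenes, so their single values are uncertain. Of 29 heat shock and cytosolic chaperone genes, 10 were higher and 1 lower (*Cryab*) at KO P60, with a median of 0.21, but 5 were higher and 1 lower with median scaling. *Hspe1* (0.72) and *Hspd1* (0.31), the mitochondrial chaperonins, *Cct5* (0.67), of the cytosolic chaperonin, and *Hspb8* (0.56), a small heat shock protein, were among them. At control P60, 8 were higher and 1 lower, and no difference passed. *Cct5* was detected on 2 of 3 arrays at KO P30.

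**Figure D5:**
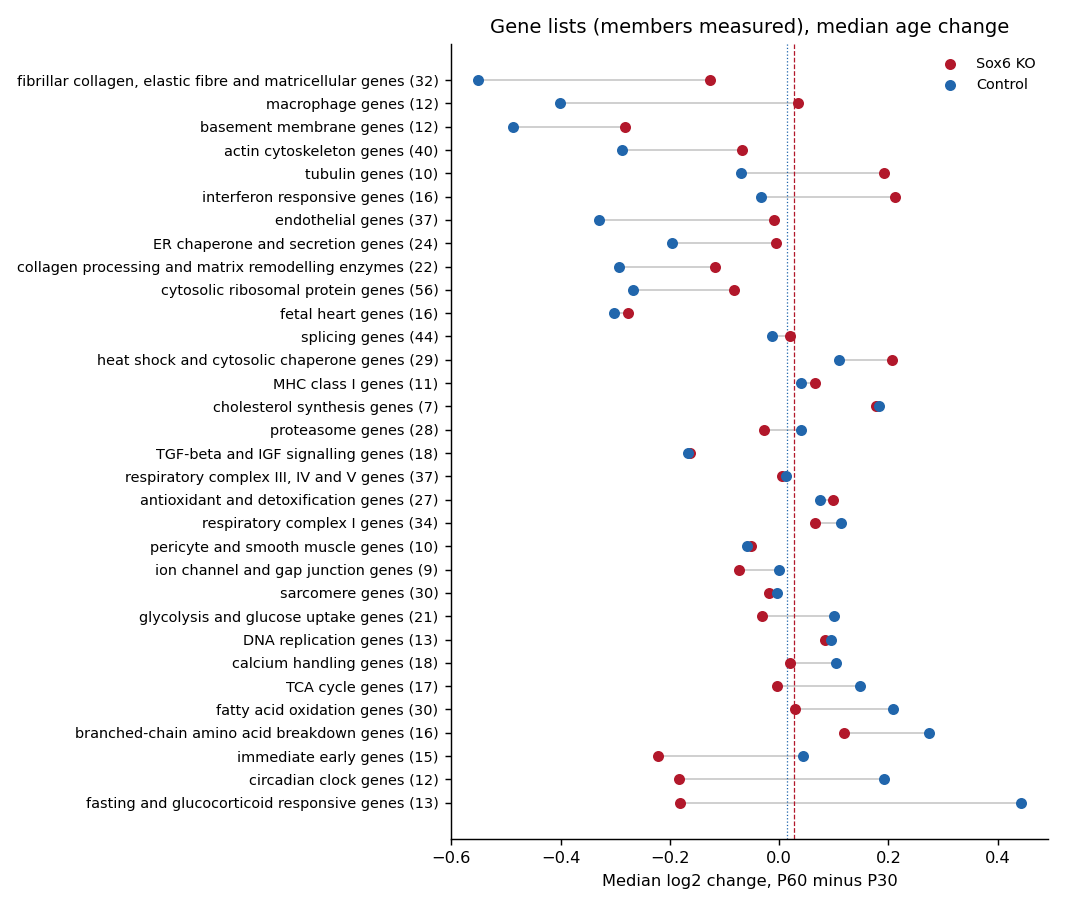
Median log2 change (P60 minus P30) of each gene list in Sox6 KO and in control ventricles. The lists of matrix genes lie farther below 0 in the controls than in the KO (fibrillar, elastic fibre and matricellular genes -0.13 in the KO and -0.55 in the controls), and the clock and fasting lists lie below 0 in the KO and above 0 in the controls.

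The study listed genes whose KO effect was seen at every age. *Picalm*, an adaptor of clathrin-mediated endocytosis, read 8.50, 8.53 and 8.51 at KO P60, against 9.18, 9.11 and 9.49 at KO P30, a change of -0.75 (adjusted p = 2.51e-06). The controls stayed at 7.25 to 7.52 over both ages, so the excess of the KO over the controls was smaller at P60 (1.17) than at P30 (1.84), with a difference of -0.67 (adjusted p = 0.00328). *Zkscan17*, a zinc finger gene, changed by -0.61 in the KO and -0.63 in the controls, and was 0.76 above the controls at P60 and 0.75 above them at P30. None of the 5 probes named *Hbb-b1* through the study's table changed between KO P60 and KO P30 past the threshold (log2 change -0.39 to 0.04), 1 of the 5 was not well above background at KO P60, and these adult beta globin probes can share sequence with other globin genes. *Psmd8* (-0.61, adjusted p = 0.124), *Myocd*, *Pgap2*, *Samd4*, *Lcmt1* and *Nudt6* did not pass in the KO either. *Rpgrip1* and *Ube2j2*, which are also on the study's list, are not described here. *Egr1* and *Ccnd1*, which the study discusses but does not list for every age, did not pass in the KO. The remaining gene lists (antioxidant, cholesterol synthesis, DNA replication, ER chaperone, ion channel, pericyte and smooth muscle, proteasome, splicing and tubulin genes) had KO medians of -0.07 to 0.19. Of 37 mitosis genes 1 was measured (0.23), and of 7 MHC class II genes none.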

How the data were processed

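RNA of whole ventricles was measured on single-colour Illumina mouse bead arrays. The authors exported signal intensities from the scanner files with IlluminaExpressionFileCreator, and the deposited intensities are linear and not normalized between arrays. No source used here gives that program's version or whether it subtracted background. The table has 46255 rows, of which 974 are control rows. Its detection p-values are empty, so 936 negative controls were identified by their range of IDs, and the 38 other controls were not used. A second deposited table holds filtered, quantile normalized intensities of 6784 probes, which the authors made with limma. It differed by at most 4.8e-10 on the log2 scale from quantile normalization of its own probes and served as an alternative.

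A probe counted as detected when it exceeded the negative control mean by 2 SD, and was kept when every array of any 1 of the 10 groups detected it (17997 of 45281 gene probes). The log2 intensities of all 30 arrays were quantile normalized together, without background correction. Each probe was fitted in limma 3.58.1 (R 4.3.3) with 1 mean per group, 20 residual and 6.72 prior degrees of freedom. Adjusted p-values are two-sided, from limma's moderated test with Benjamini-Hochberg adjustment over the probes tested, and n is 3 arrays per group throughout. The labels name replicates of separate samples, and the study's methods call them biological. Summaries used Python 3.11.15 and pandas 2.3.3.

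Gene names came from the platform annotation (6074 probes), the study's tables (335) and its table of genotype differences alone (209), while 11379 probes tested have no name here. The last kind was left out of list counts, which use 1 probe per gene, the one with the highest mean. Members and the 34 gene lists were chosen with earlier results of these data known. Genes named in the text are the 15 largest changes each way among called, non-overlapping probes, the 8 largest differences each way, up to 8 members of a described list with any count of 5 or fewer, genes the study lists, and 8 added after their values were seen (*Myl7*, *Eln*, *Mfap4*, *Col6a3*, *Col5a1*, *Bgn*, *Dpt* and *Fstl1*). Predicted genes were counted and not described. Some genes that are counted are not reported by name here.

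The fit was tested on simulated data for the comparison of KO P60 with KO P30 over 17997 probes. Of 50 probes changed at each size, 22 were called at 1.5-fold, 39 at 2-fold, 42 at 3-fold and 50 at 4-fold, and 0 of 17797 unchanged probes were called. The simulated noise was independent and normal, with the same SD of a probe in all groups, and the simulated KO ages had no difference in background. The real arrays differ in these respects, so the counts do not give the rate of false calls among the probes called here. Alternatives changed the normalization, the background correction, the filter, the arrays fitted, the variance model, the probe per gene and the deposited table, added a replicate block, and left out each array in turn.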

Additional observations from a re-analysis of the deposited data

Results flagged for a closer look

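Each result below stands out because the change between P60 and P30 differed between Sox6 KO and control ventricles in limma's test of the difference itself (adjusted p under 0.05, KO change minus control change, log2, n = 3 arrays per group). Positive values mean that the KO change was the more positive. No group had more than 3 arrays, so single arrays were not tested as outliers. The difference did not pass in 9 to 14 of 17 alternatives for *Abhd1* (1 of its probes), *Bcl6b*, *Csnk1e*, *Dpt*, *Cldn5*, *Rpl35*, *Pfkfb2*, *Rpl13a*, *Tcap*, *Tsc22d3*, *Ifitm2*, *Laptm5*, *Sparc* (1 of its probes), *Tesc* and *Psmd11*.

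Positive differences among matrix genes and their enzymes were those of *Spon2* (2.83), *Fbn1* (1.185), *Loxl1* (1.16), *Mfap4* (1.14), *Eln* (1.12), *Col3a1* (1.09), *Fstl1* (0.95), *Mmp14* (0.88), *Col6a3* (0.86), *Mmp2* (0.69), *Bgn* (0.68), *Adamts2* (0.65), *Dpt* (0.60), *Sparc* (0.58) and *Col5a1* (0.56). For basement membrane collagens they were *Col4a1* (1.14), *Col4a2* (0.91) and *Col4a5* (0.54), and the laminin gene *Lama5* (-0.62) and the protease inhibitor gene *Timp3* (-0.82) differed the other way. Endothelial genes gave *Rhoj* (0.79), *Cldn5* (0.79), *Emcn* (0.57) and *Bcl6b* (0.45), macrophage genes *Lyz2* (1.21), *Lyz1* (0.88) and *Laptm5* (0.71), interferon-responsive genes *Ifi27l2a* (1.72), *Ifi27* (0.69) and *Ifitm2* (0.45), and actin cytoskeleton genes *Tmsb4x* (0.75), *Capg* (0.55) and *Myl6* (0.48). Among growth regulators, *H19* (1.10) and *Igf1* (0.63) were positive, and among ribosomal protein genes *Rpl13a* (0.43) and *Rpl35* (0.39).

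Of the leading rises in the KO, *Paip1* (1.36), *Abhd1* (1.26), *Nedd1* (1.09), *Fah* (0.88), *Retnla* (0.87) and *Mtrex* (0.57) rose more than in the controls. *Slc41a3*, a magnesium transporter, had a positive difference of 1.23, with a KO change of 0.27 that did not pass (adjusted p = 0.355) and a control change of -0.96.

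Negative differences among clock genes were those of *Per2* (-1.66), *Per1* (-1.65), *Dbp* (-1.58), *Tef* (-1.50) and *Csnk1e* (-0.47), and among genes that respond to fasting, glucocorticoids or acute stimuli those of *Cebpb* (-1.49), *Zfp36* (-1.09), *Tsc22d3* (-0.94), *Fbxo32* (-0.84) and *Klf9* (-0.81). *Rhobtb1* gave -1.79. Leading falls in the KO with a negative difference were *Myl4* (-2.97), *Depp1* (-1.42), *Tesc* (-1.14), *Bfar* (-0.88) and *Psmd11* (-0.50), and *Picalm* (-0.67) and *Tgfbr3* (-0.62) fell more in the KO as well. *Tcap* (-0.91), *Acadm* (-0.66) and *Pfkfb2* (-0.60) rose in the controls, and of these 3 the KO change of *Pfkfb2* alone passed (0.32, adjusted p = 0.0426).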

How the results depend on the processing

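Between KO P60 and KO P30, 381 probes were called. The count was 251 (110 higher, 141 lower) from the 6 KO arrays alone, 213 (88 higher, 125 lower) in the authors' processed table, 1231 (599 higher, 632 lower) after normexp background correction, 330 (86 higher, 244 lower) with median scaling and 347 to 401 when 1 array was left out. The processed table holds fewer probes, and the cause of the other shifts was not tested. The control count of 547 was 1547 (753 higher, 794 lower) after normexp and 507 to 608 when 1 array was left out. The 428 differences between the genotypes were 220 (118 positive, 102 negative) with median scaling and 278 to 478 with 1 array left out, lowest without control P30 replicate 2 and also low without control P60 replicate 2 (293) and KO P30 replicate 3 (295). List members past the threshold, 169 in all, numbered 121 to 150 with 1 array left out. Under median scaling 7 list medians turned negative, those of DNA replication (-0.000501), antioxidant (-0.00413), macrophage (-0.0251), calcium handling (-0.0266), fatty acid oxidation (-0.0328), splicing (-0.0507) and complex III, IV and V genes (-0.0249). With 1 array left out, 19 medians of 9 lists changed sign, none of them above 0.034 in size with all arrays. Of 330 list medians tried, 302 moved by no more than the spread between replicates.

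Same-numbered KO arrays of the ages deviated together at correlations of -0.05, 0.03 and 0.09, and control arrays at 0.03, -0.04 and 0.08. Arrays of different numbers gave -0.12 to 0.09 in the KO and -0.11 to 0.08 in the controls. The deviations are taken from means of only 3 arrays, so these values cannot exclude a pairing of the samples. With a replicate block, 386 probes were called over the 6 KO arrays and 347 differences over the 12 arrays. Dim probes are limited by background, which was lower on the P60 arrays.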
